A study of Mus musculus with 9 samples.

Results

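Collagens were followed as a gene set in single-nucleus RNA sequencing of mouse hearts. The set held every gene whose symbol is Col, digits, the letter a and digits, and that had at least 50 UMIs (molecular tags that count RNA molecules) over all libraries. Of 44 such symbols among 32285 genes, 42 qualified. Col10a1, Col6a5 and Col9a1 were just inside, with 65, 82 and 86 UMIs, and Col6a4 and Col9a2 just outside, with 43 and 28. The hearts came from 9 male wild-type mice aged 9 to 10 weeks, with 1 library per heart and 3 hearts per group, numbered as in the labels. NS-Sham mice had a thoracotomy alone and normal saline (NS). In NS-I/R mice the left anterior descending artery was closed for 45 min and reopened for 24 h (ischemia-reperfusion, I/R), with saline. Enpa-I/R mice had the same injury and received enpatoran (5 mg/kg), which blocks the RNA-sensing receptor TLR7. All mice received 2 intraperitoneal injections, the first 1 h before ischemia, and the sources differ on when the second was given. The whole heart was powdered, so injured and spared muscle were pooled in each library.

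Collagens are secreted proteins whose chains wind into triple helices. Fibrillar collagens (types I, III and V among them) give the heart's interstitium its tensile strength and are made mainly by fibroblasts. Type IV collagen is the network of the basement membrane that surrounds cardiomyocytes, mural cells and vessels, and is built from heterotrimers, of which the chains encoded by Col4a1 and Col4a2 form the most widespread one. Type VI collagen forms beaded filaments next to basement membranes, fibril-associated collagens such as types XII and XIV decorate fibrils, and types XV and XVIII carry sugar chains and sit at the basement membrane.

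Type IV genes lie in head-to-head pairs, and 3 of their promoter windows are printed. These were chosen because Col4a1 and Col4a2 rose together after I/R whereas Col4a4 was called lower in fibroblast-like and higher in pericyte-like nuclei. The pericyte-like call was lost in some fits that left out a library. Each window runs from 250 bases before to 50 bases after the annotated start, from RefSeq on GRCm38.p6, and 33 of the 42 genes had such an entry, with 36 windows. The Col4a1 window is chr8:11312777-11313076 (minus strand), the Col4a2 window chr8:11312555-11312854 (plus strand) and the Col4a4 window chr1:82586800-82587099 (minus strand). The first pair shares 78 bases, read from opposite strands, and each sequence is printed 5′ to 3′ along its gene. Capitals mark matches, on either strand, to 4 motifs searched by their letters, a C-rich motif of type IV promoters spelled CCCTCCCC, the CCAAT box, the GC box spelled GGGCGG and the element spelled TATAAA.
Col4a1: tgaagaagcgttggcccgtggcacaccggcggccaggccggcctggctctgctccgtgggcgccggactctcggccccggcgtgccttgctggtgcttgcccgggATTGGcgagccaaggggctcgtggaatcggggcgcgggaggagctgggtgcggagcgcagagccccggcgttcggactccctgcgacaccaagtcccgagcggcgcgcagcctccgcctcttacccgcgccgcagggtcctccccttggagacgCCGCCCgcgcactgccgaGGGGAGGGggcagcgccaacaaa
Col4a2: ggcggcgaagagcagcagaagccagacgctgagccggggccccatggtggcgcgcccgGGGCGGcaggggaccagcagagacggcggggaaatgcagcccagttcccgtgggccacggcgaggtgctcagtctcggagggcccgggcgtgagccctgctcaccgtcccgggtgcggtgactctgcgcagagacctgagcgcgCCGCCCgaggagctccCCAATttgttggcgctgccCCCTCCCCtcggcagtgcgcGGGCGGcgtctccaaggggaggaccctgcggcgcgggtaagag
Col4a4: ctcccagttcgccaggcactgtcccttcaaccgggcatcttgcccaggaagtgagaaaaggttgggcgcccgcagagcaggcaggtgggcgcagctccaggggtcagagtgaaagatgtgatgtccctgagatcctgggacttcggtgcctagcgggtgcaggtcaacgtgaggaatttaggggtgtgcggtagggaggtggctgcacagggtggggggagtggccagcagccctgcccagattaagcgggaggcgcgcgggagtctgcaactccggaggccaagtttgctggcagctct
The Col4a1 window held 1 C-rich match, 1 CCAAT and 1 GC box, and the Col4a2 window held 1, 1 and 3 of them. Matches within a window did not overlap. The C-rich match and the GC box of the Col4a1 window lie in the shared 78 bases. They are the same bases as the C-rich match and 1 GC box of the Col4a2 window. Both windows are among the 36 collagen windows, so these bases were searched in each. Neither these windows nor that of Col4a4 held TATAAA, and the Col4a4 window held none of the 4 motifs. The C-rich motif occurred in 10.8% of all 32851 mouse windows of this length and in 11 of the 36 collagen windows. CCAAT occurred in 37.4% and 12, the GC box in 35.7% and 21, and TATAAA in 13.6% and 5. These are letter matches and not sites.

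Libraries held 19651794 to 38970153 UMIs, and 3160 to 6471 nuclei per library were kept, 41979 in all. Pairs of libraries shared at most 11 barcodes and, in another pair, at most 0.294% of the smaller library. NS-I/R 3 stood apart from its group: over all genes its log CPM correlated at 0.988 to 0.990 with the Enpa-I/R libraries and at 0.981 with each of NS-I/R 1 and 2, which correlated at 0.989 with each other. Fold changes are therefore given with all libraries and without NS-I/R 3. Nuclei were clustered without collagen genes and named from marker genes, and a class such as fibroblast-like is a set of clusters. Counts were summed per class and library, given as CPM, counts scaled to equal depth and so not corrected for gene length, and tested with edgeR, with p-values adjusted by Benjamini-Hochberg over all genes tested in that class and contrast and a threshold of 0.05. The NS-I/R libraries enter the contrast with NS-Sham and that with Enpa-I/R, so these are not independent.

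In NS-Sham hearts most collagen RNA lay in fibroblast-like nuclei. For 29 of the 42 genes this class held more UMIs than any other, for 6 cardiomyocyte-like, for 4 endothelial-like, for 2 smooth muscle-like and for 1 pericyte-like nuclei. Fibroblast-like nuclei held 92.1% of the UMIs of Col6a6, a type VI chain, 90.0% of those of Col8a1, a short-chain network collagen, 85.8% of Col6a3 and 80.5% of Col1a2, the second chain of type I collagen. Among the exceptions, 77.2% of the UMIs of Col4a5, a type IV chain, were in cardiomyocyte-like nuclei, 64.0% of those of Col25a1, a transmembrane collagen, in pericyte-like nuclei, and 44.3% of those of Col18a1, the precursor of endostatin, in smooth muscle-like nuclei. Classes differ in nuclei and RNA per nucleus, so the order by CPM was another: 17 genes had their highest pooled CPM in fibroblast-like and 8 in Schwann-like nuclei.

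Several collagens had their highest pooled CPM in small classes. Col4a3 and Col4a4, which encode chains of a second type IV heterotrimer, had 598 and 772 CPM in pooled endocardial-like nuclei of NS-Sham, against 12.3 and 9.11 in endothelial-like ones. They were not exclusive to that class. The next highest values were 167 CPM of Col4a3 in epicardial-like and 256 CPM of Col4a4 in fibroblast-like nuclei. Fibroblast-like nuclei held 49.0% of the Col4a3 and 55.9% of the Col4a4 UMIs. Col23a1, a transmembrane collagen, had 553 CPM in lymphatic endothelial-like nuclei, and Col5a3, a type V chain, had 606 CPM in Schwann-like nuclei against 227 in fibroblast-like ones. Col4a6 had 568 CPM in smooth muscle-like nuclei. Col4a5 had 507 CPM there and 293 in cardiomyocyte-like nuclei. Type I and III chains were not exclusive to fibroblast-like nuclei by CPM: Col3a1 had 612 CPM in epicardial-like, 593 in Schwann-like and 425 in fibroblast-like nuclei. UMIs of Col8a1, the gene with most collagen UMIs in fibroblast-like nuclei, were also counted in T and NK-like nuclei (427 CPM, 82 UMIs in 58 nuclei), and the part of free or neighbouring RNA in these levels was not tested. Comparisons of level between classes are descriptions, since the classes come from clustering these nuclei.

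**Figure D1:**
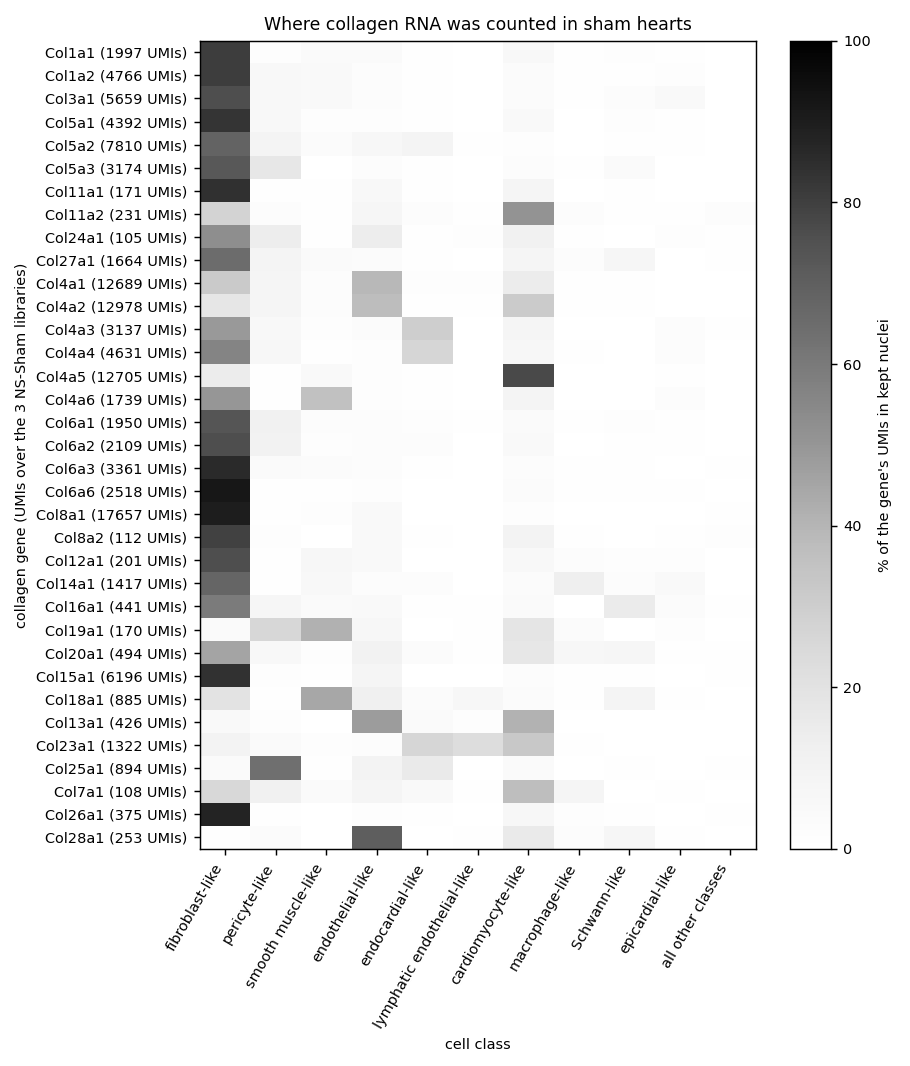
Share (%) of a collagen gene's UMIs found in each nuclear class of the NS-Sham libraries, with genes in rows and classes in columns, shown by colour. Col9a3, Col22a1, Col17a1, Col2a1, Col9a1, Col6a5 and Col10a1, with at most 97 NS-Sham UMIs, are not drawn. T and NK-like, B-like, neutrophil-like, adipocyte-like and unnamed nuclei are summed in the last column. Fibroblast-like nuclei held most UMIs of most genes, and the largest shares of Col4a5, Col25a1 and Col18a1 were in cardiomyocyte-like, pericyte-like and smooth muscle-like nuclei.

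After I/R, Col4a1 and Col4a2, the basement membrane pair, rose in all 4 of the fibroblast-like, endothelial-like, pericyte-like and cardiomyocyte-like classes, and Col4a1 rose in smooth muscle-like nuclei too. In endothelial-like nuclei, which had the highest NS-Sham levels of the classes tested, Col4a1 had 778, 521 and 690.0 CPM in NS-Sham and 1603, 1473 and 1174 CPM in NS-I/R (log2 change 1.10 ± 0.16 (SE), adjusted p = 0.00016, and 1.21 without NS-I/R 3). Col4a2 in the same nuclei had 741, 521 and 679.5 CPM in NS-Sham and 1310.4, 1296 and 1166 CPM in NS-I/R (log2 change 0.96 ± 0.13 (SE), adjusted p = 0.00012, and 1.01 without NS-I/R 3). All 3 NS-I/R libraries lay above all 3 NS-Sham libraries for both genes.

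Pericytes are the contractile cells that share the capillary basement membrane. In pericyte-like nuclei Col4a1 had 429, 342 and 356 CPM in NS-Sham and 1449.5, 1335 and 1206 CPM in NS-I/R (log2 change 1.82 ± 0.17 (SE), adjusted p = 2.07e-06, and 1.89 without NS-I/R 3). Col4a2 had 393, 345 and 378 CPM in NS-Sham and 1085, 1021 and 966 CPM in NS-I/R (log2 change 1.46 ± 0.14 (SE), adjusted p = 1.79e-06, and 1.50 without NS-I/R 3). The groups did not overlap. The rise of Col4a1 was 0.67 ± 0.16 (log2, SE) larger in pericyte-like than in endothelial-like nuclei (interaction term, adjusted p = 0.0136), a call that was lost without NS-Sham 1 (0.64, 0.0628) or NS-Sham 3 (0.60, 0.0886) (log2 difference and adjusted p in brackets). In smooth muscle-like nuclei Col4a1 had 270.2, 348 and 292 CPM in NS-Sham and 885, 925 and 571 CPM in NS-I/R (log2 change 1.38 ± 0.24 (SE), adjusted p = 0.00434, and 1.57 without NS-I/R 3), and Col4a2, with 368, 373 and 237 CPM in NS-Sham and 643, 653 and 408 CPM in NS-I/R, did not pass the test (log2 change 0.80 ± 0.25 (SE), adjusted p = 0.0753, and 0.99 without NS-I/R 3 (adjusted p = 0.0151)). NS-I/R 3 was the lowest of its group for both. In this class the 7 smooth muscle markers summed to 10490 to 11350 CPM before and 6191 to 7242 CPM after I/R and the 7 neutrophil markers to 0 to 4.09 CPM and 54.9 to 256 CPM, and their part was not tested.

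In fibroblast-like nuclei the pair went against most other collagens. Col4a1 had 513, 396 and 393 CPM in NS-Sham and 1278, 1067 and 615 CPM in NS-I/R (log2 change 1.18 ± 0.22 (SE), adjusted p = 0.00112, and 1.43 without NS-I/R 3), and Col4a2 had 269.7, 235 and 248 CPM in NS-Sham and 777, 648 and 449 CPM in NS-I/R (log2 change 1.32 ± 0.19 (SE), adjusted p = 0.000188, and 1.50 without NS-I/R 3). NS-I/R 3 was the lowest NS-I/R library for both and was still above every NS-Sham library. The largest fold was in cardiomyocyte-like nuclei. Col4a1 there had 61.7, 49.1 and 64.1 CPM in NS-Sham and 790.5, 672 and 526 CPM in NS-I/R, 11.4-fold in the fit (log2 change 3.51 ± 0.18 (SE), adjusted p = 2.81e-06, and 3.65 without NS-I/R 3). Col4a2 had 127, 108 and 138 CPM in NS-Sham and 1286, 1134 and 566 CPM in NS-I/R, 8.01-fold (log2 change 3.00 ± 0.27 (SE), adjusted p = 4.04e-05, and 3.28 without NS-I/R 3), with NS-I/R 3 at less than the other two libraries.

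Different clusters held most of the cardiomyocyte-like class in each group. Cluster 2 held 79.0% of the class in NS-Sham but 8.91% in NS-I/R, cluster 1 went from 2.97% to 45.0%, and cluster 26, led by Xirp2, Ank3 and Alpk2, held 33.7% of NS-I/R, 6.35% of Enpa-I/R and none of the NS-Sham nuclei of the class. Cluster 26 had 1 smooth muscle marker and no cardiomyocyte marker among its 10 leading genes, so the clusters were also compared by number. Col4a1 rose by 2.60 ± 0.29 in cluster 0, 1.82 ± 0.19 in cluster 1 and 1.71 ± 0.25 in cluster 2 (log2, SE, a choice made after seeing the data). Col4a2 rose by 2.62 ± 0.29, 2.26 ± 0.27 and 1.98 ± 0.33. In cluster 2 of NS-Sham, Col4a1 had 57.4, 46.3 and 61.2 CPM, against 233, 199 and 117 CPM in NS-I/R. Cluster 26 had the highest pooled value, 1118 CPM of Col4a1 in NS-I/R. Its nuclei had a median of 8408 UMIs, 3.05 times that of their own libraries. Clusters 1 and 2 were deeper, with medians of 10076 and 9475.5 UMIs (3.72 and 3.42 times). Clusters 0 and 3 were less deep, with medians of 1947 and 4707.5 UMIs. The part of depth in the Col4a1 value of cluster 26 was not tested.

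UMIs of the pair were also counted in classes not known to make basement membrane. Col4a1 had 31.0 CPM in macrophage-like nuclei of NS-Sham and 124 CPM in NS-I/R, 0.0789 and 0.311 UMIs per nucleus. In NS-I/R neutrophil-like nuclei it had 731 CPM, beside the 669 CPM of cardiomyocyte-like nuclei, but 1.26 UMIs per nucleus against 7.18. The neutrophil-like cluster scored second highest for endothelial markers. Per nucleus, Col4a1 went from 0.568 to 7.18 UMIs in cardiomyocyte-like, from 1.23 to 2.89 in endothelial-like and from 0.911 to 3.35 in pericyte-like nuclei. The part of RNA from other cells in these levels was not tested. Together, Col4a1 and Col4a2 were 0.0184% ± 0.00258 (SD, n = 3) of all UMIs of cardiomyocyte-like nuclei for NS-Sham, 0.167% ± 0.0484 for NS-I/R and 0.0752% ± 0.00516 for Enpa-I/R. Endocardial-like nuclei were not tested, and their Col4a1 values were 142, 94.6 and 102 CPM in NS-Sham, 1139.7, 741 and 360.4 CPM in NS-I/R and 293, 277 and 322 CPM in Enpa-I/R, so that all NS-I/R libraries were above all NS-Sham ones and NS-I/R 3 was nearest to Enpa-I/R. The 5 endocardial markers of these nuclei summed to 7330 to 8078 CPM before and 2610 to 6585 CPM after I/R and the neutrophil markers to 0 to 2.63 CPM and 87.0 to 204 CPM, and their part was not tested.

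**Figure D2:**
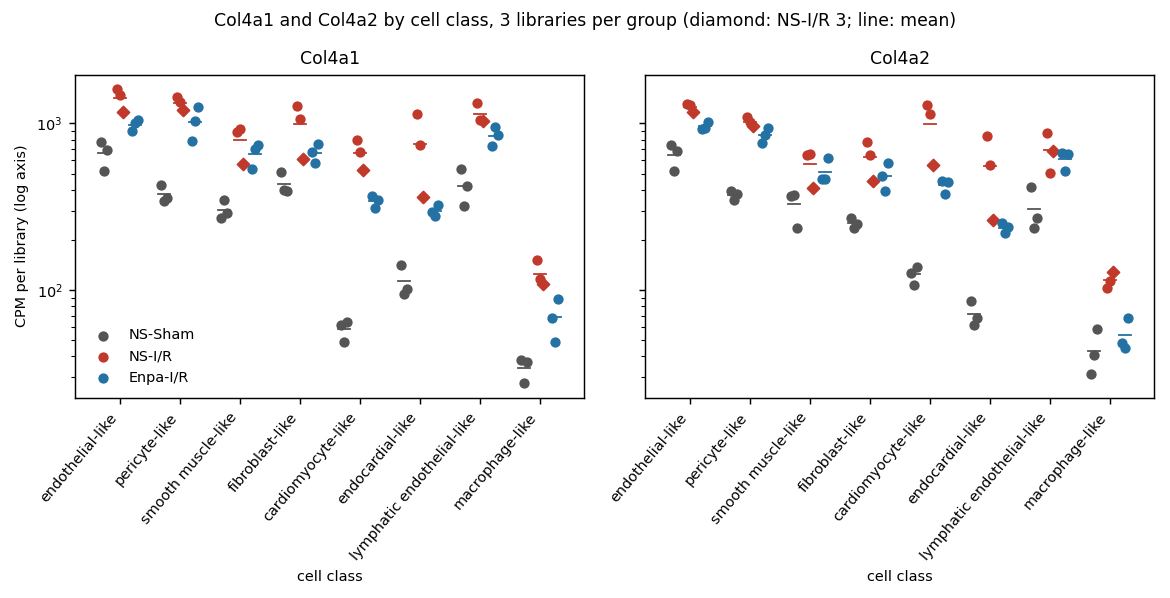
Col4a1 and Col4a2 in TMM-scaled CPM (log axis) in each library and class, with a point per library, the group mean as a line and NS-I/R 3 as a diamond. In each class drawn the 3 NS-I/R libraries lay above the 3 NS-Sham libraries.

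Fibroblast-like nuclei had less RNA of 16 collagens and more of 4 after I/R. Of 35 collagen genes tested there, 20 passed (4 up, 16 down), 57.1% against 46.7% of all 13404 genes. By direction, 23.4% of all genes were up and 23.3% down. The median log2 fold change of the tested collagens was -0.74, and that of all genes -0.01. Basement membrane chains split, with Col4a1 and Col4a2 up and Col4a3 to Col4a6 down. Of the beaded filament chains 3 of 4 fell, of the fibrillar chains 2 of 10, and both type XV and type XVIII chains fell.

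The largest fall among collagens at 10 CPM or more was that of Col6a6 (ENSMUSG00000043719), which had 279, 233 and 239.9 CPM in NS-Sham and 25.6, 16.9 and 23.8 CPM in NS-I/R, a 11.3-fold decrease (log2 change -3.50 ± 0.19 (SE), adjusted p = 4.01e-07, and -3.57 without NS-I/R 3). Col14a1, which encodes the fibril-associated type XIV chain, had 117, 87.8 and 117 CPM in NS-Sham and 15.7, 15.8 and 37.0 CPM in NS-I/R (log2 change -2.20 ± 0.29 (SE), adjusted p = 8.35e-05, and -2.75 without NS-I/R 3). Col15a1 had 621, 509 and 577 CPM in NS-Sham and 77.7, 68.7 and 259 CPM in NS-I/R (log2 change -2.07 ± 0.40 (SE), adjusted p = 0.00125, and -2.96 without NS-I/R 3). In these 3 genes no NS-I/R library reached any NS-Sham library, although NS-I/R 3 was far above NS-I/R 1 and 2 for Col14a1 and Col15a1. Col26a1, a little-studied collagen, had 40.2, 31.5 and 37.5 CPM in NS-Sham and 11.2, 8.93 and 7.03 CPM in NS-I/R (log2 change -2.01 ± 0.21 (SE), adjusted p = 1.95e-05, and -1.84 without NS-I/R 3). Col22a1, a fibril-associated collagen counted in few UMIs (52 before and 7 after I/R), also fell (-3.20 ± 0.53, or -3.04 without NS-I/R 3, log2, SE).

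The minor type IV chains fell together. Col4a3 had 186, 154 and 160.3 CPM in NS-Sham and 46.3, 34.8 and 28.5 CPM in NS-I/R (log2 change -2.19 ± 0.18 (SE), adjusted p = 4.21e-06, and -2.04 without NS-I/R 3), and Col4a4 had 272, 284 and 258 CPM in NS-Sham and 102, 70.3 and 56.2 CPM in NS-I/R (log2 change -1.84 ± 0.18 (SE), adjusted p = 1.12e-05, and -1.66 without NS-I/R 3). Col4a5 had 201, 185 and 225 CPM in NS-Sham and 49.0, 64.6 and 76.3 CPM in NS-I/R (log2 change -1.68 ± 0.15 (SE), adjusted p = 6.61e-06, and -1.83 without NS-I/R 3), and Col4a6 changed by -1.46 ± 0.19, or -1.56 without NS-I/R 3 (log2, SE). The groups did not overlap for any of the 4 genes. Type VI chains other than Col6a6 fell less: Col6a1 had 159, 149 and 152 CPM in NS-Sham and 46.6, 43.5 and 88.9 CPM in NS-I/R (log2 change -1.35 ± 0.22 (SE), adjusted p = 0.000438, and -1.77 without NS-I/R 3), and Col6a2 changed by -0.91 ± 0.23, or -1.29 without NS-I/R 3. Col6a3, with 343, 281 and 327 CPM in NS-Sham and 105, 121 and 378 CPM in NS-I/R, did not pass with all libraries (log2 change -0.65 ± 0.36 (SE), adjusted p = 0.164, and -1.48 without NS-I/R 3 (adjusted p = 6.12e-08)). Col18a1 changed by -1.23 ± 0.24, or -1.41 without NS-I/R 3 and Col8a1, the most counted collagen of the class with 1876, 1654 and 1548 CPM in NS-Sham and 1047, 815 and 1185 CPM in NS-I/R, by -0.74 ± 0.16, or -0.87 without NS-I/R 3.

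The fibrillar chains of scar tissue did not differ between NS-I/R and NS-Sham beyond the spread of the libraries, and the 3 NS-I/R libraries were far from each other. Col1a1 had 207, 142 and 203 CPM in NS-Sham and 137, 95.3 and 266 CPM in NS-I/R (log2 change -0.14 ± 0.30 (SE), adjusted p = 0.731, and -0.65 without NS-I/R 3 (adjusted p = 0.00702)), and Col1a2 had 442, 373 and 455 CPM in NS-Sham and 222, 231 and 467 CPM in NS-I/R (log2 change -0.46 ± 0.24 (SE), adjusted p = 0.138, and -0.90 without NS-I/R 3 (adjusted p = 3.14e-05)). Col3a1, the type III chain, had 491, 375 and 627 CPM in NS-Sham and 221, 233 and 763 CPM in NS-I/R (log2 change -0.29 ± 0.39 (SE), adjusted p = 0.566, and -1.13 without NS-I/R 3 (adjusted p = 7.68e-05)). For Col1a1, Col1a2, Col3a1 and Col6a3, NS-I/R 3 was above all NS-Sham libraries and NS-I/R 1 and 2 were below them. Col5a2 changed by 0.28 ± 0.20, or 0.03 without NS-I/R 3, short of the threshold, while Col5a1 passed it narrowly, with 415, 374 and 393 CPM in NS-Sham and 192, 157 and 389 CPM in NS-I/R (log2 change -0.67 ± 0.25 (SE), adjusted p = 0.0452, and -1.17 without NS-I/R 3). This call was lost without any one library except NS-I/R 3 (log2 -0.71 to -0.43, adjusted p 0.0618 to 0.15). Col5a3 had 296, 212 and 263 CPM in NS-Sham and 51.1, 82.2 and 233 CPM in NS-I/R (log2 change -1.06 ± 0.40 (SE), adjusted p = 0.0439, and -1.93 without NS-I/R 3) and lost its call without any one library except NS-I/R 3 (log2 -1.19 to -0.69, adjusted p 0.0602 to 0.142).

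Apart from Col4a1 and Col4a2, only Col12a1 and Col23a1 passed the test upward in fibroblast-like nuclei. Col12a1, the fibril-associated type XII chain, had 19.7, 12.7 and 21.1 CPM in NS-Sham and 47.4, 39.8 and 33.9 CPM in NS-I/R (log2 change 1.22 ± 0.21 (SE), adjusted p = 0.000621, and 1.36 without NS-I/R 3), with no overlap of the groups. In the sum of clusters 10 and 20, the fibroblast-like clusters with at least 25 nuclei in every library, the Col12a1 call was lost (0.26 ± 0.25, adjusted p = 0.489). Col12a1 passed in neither cluster alone, with 1.23 ± 0.47, adjusted p = 0.0769 in cluster 10 and -1.10 ± 0.33, adjusted p = 0.0705 in cluster 20. The difference between these clusters was not tested. Col23a1 had 10.7, 11.9 and 21.6 CPM in NS-Sham and 55.6, 78.8 and 12.4 CPM in NS-I/R (log2 change 1.78 ± 0.52 (SE), adjusted p = 0.0142, and 2.26 without NS-I/R 3). NS-I/R 3 was within the NS-Sham range for Col23a1, and the call was lost without any one of NS-I/R 2, NS-Sham 1 and NS-Sham 2 (log2 1.24 to 1.62, adjusted p 0.0591 to 0.0685).

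**Figure D3:**
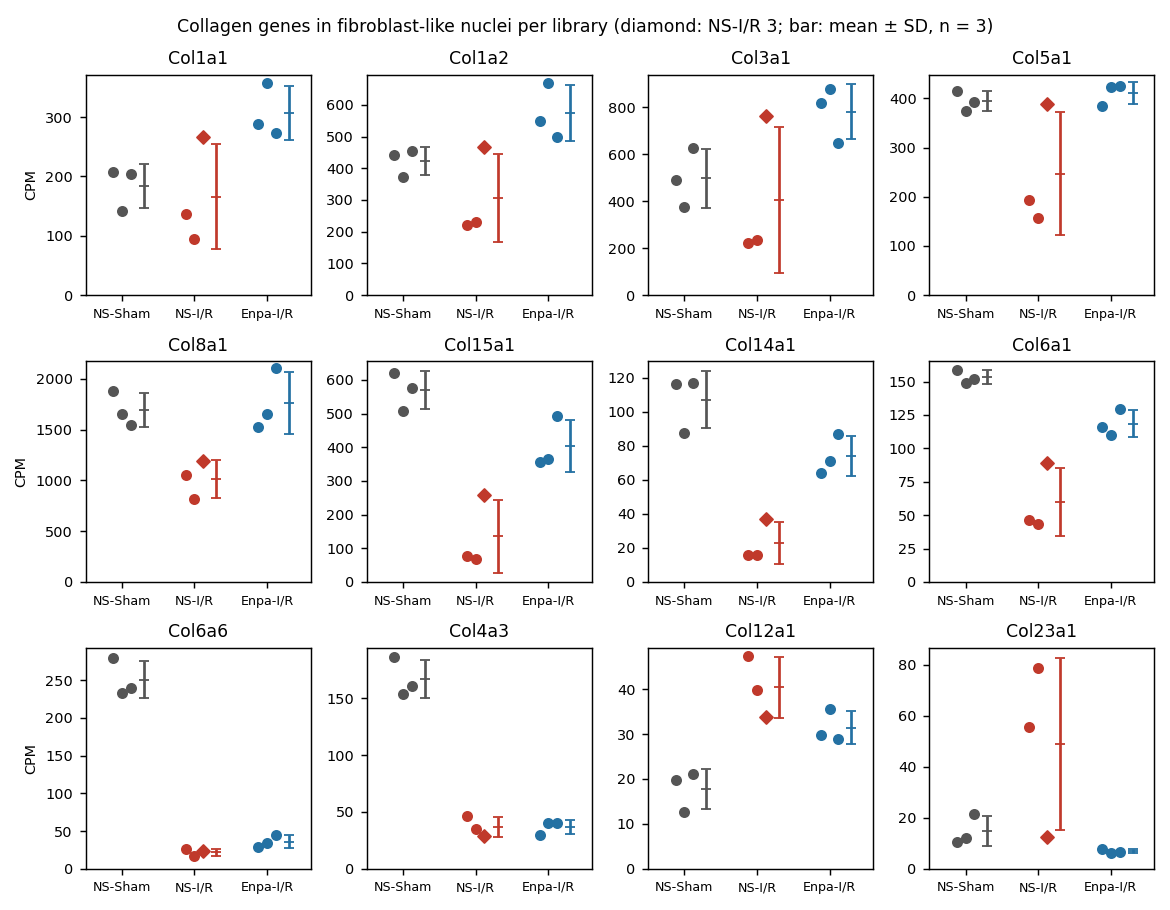
CPM of 12 collagen genes in fibroblast-like nuclei (linear axes from 0), with a point per library, groups by colour, NS-I/R 3 as a diamond, and bars at the mean ± SD (n = 3). Col6a6, Col14a1, Col15a1, Col6a1 and Col4a3 lay lower in every NS-I/R library than in every NS-Sham library, Col12a1 lay higher, and NS-I/R 3 was apart from NS-I/R 1 and 2 for the fibrillar chains.

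The makeup of the fibroblast-like class changed as well. Cluster 9 held 34.2% of the class in NS-Sham but 0.707% in NS-I/R, and cluster 25, led by Tnc and Adam12, held 0.290% and 48.8%. Cluster 10 held 59.4% and 42.5%. Col8a1, a member of the set, was among the 10 leading genes of cluster 25, though it fell in the class as a whole. In cluster 10 its pooled value was 1626 CPM in NS-Sham and 768 CPM in NS-I/R. Within cluster 10 alone, 26 collagens were tested and 13 passed (3 up, 10 down), and each of the 13 also passed with the same sign in the whole class. Of all genes, 2313 of 11402 passed there. Within cluster 20, 6 of 25 collagens passed (0 up, 6 down), 5 of them shared with the class, against 209 of 5539 genes. In the sum of both clusters the calls of Col18a1 (-0.76 ± 0.34, adjusted p = 0.125), Col6a2 (-0.59 ± 0.26, adjusted p = 0.122) and Col5a1 (-0.61 ± 0.21, adjusted p = 0.0585) were lost, and Col26a1 was -0.77 ± 0.23, adjusted p = 0.0324. Col6a6 fell by 1.79 ± 0.24 there, Col15a1 by 2.14 ± 0.34 and Col14a1 by 1.77 ± 0.36, while Col4a1 rose by 1.26 ± 0.17 and Col4a2 by 1.25 ± 0.16. The 7 fibroblast markers used for naming summed to 6557 to 7481 CPM in NS-Sham and 2894 to 3511 CPM in NS-I/R (0 of 7 higher). The 7 neutrophil markers went from 2.06 to 2.87 CPM to 50.6 to 151 CPM (7 of 7 higher), the 7 cardiomyocyte markers from 2731 to 3456 CPM to 1312 to 1400 CPM and the 6 Schwann markers from 226 to 328 CPM to 56.0 to 82.0 CPM. Their part in the collagen results was not tested.

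In endothelial-like nuclei fewer collagens passed, and mostly upward. Of 24 tested, 5 passed (4 up, 1 down), 20.8% against 35.6% of all genes (18.4% up, 17.2% down). The median log2 fold change of the tested collagens was nevertheless negative, at -0.14, and that of all genes was 0.01. Beside Col4a1 and Col4a2, Col18a1 had 20.4, 9.32 and 15.9 CPM in NS-Sham and 60.3, 83.7 and 117 CPM in NS-I/R, a 6.0-fold rise (log2 change 2.59 ± 0.28 (SE), adjusted p = 1.74e-05, and 2.33 without NS-I/R 3). Col27a1, a fibrillar collagen best known from cartilage, had 5.34, 7.55 and 3.30 CPM in NS-Sham and 14.2, 13.3 and 23.5 CPM in NS-I/R (log2 change 1.54 ± 0.34 (SE), adjusted p = 0.00311, and 1.22 without NS-I/R 3). The groups did not overlap for either gene. Col4a3 had 10.7, 15.4 and 9.34 CPM in NS-Sham and 3.45, 1.24 and 8.13 CPM in NS-I/R (log2 change -1.52 ± 0.49 (SE), adjusted p = 0.0276, and -2.38 without NS-I/R 3) and lost its call without any one of NS-I/R 1, NS-I/R 2 and NS-Sham 2 (log2 -1.39 to -1.07, adjusted p 0.0881 to 0.132). Cluster 8 held 0.448% of the class in NS-Sham but 35.3% in NS-I/R, and cluster 4 went from 46.1% to 12.3%. Within clusters present in both groups, Col4a1 rose by 0.77 ± 0.20 in cluster 4, 1.31 ± 0.18 in cluster 5, 0.82 ± 0.17 in cluster 6 and 0.98 ± 0.24 in cluster 7. Col18a1 rose by 3.50 ± 0.83 in cluster 5 and 2.15 ± 0.27 in cluster 7. In the sum of clusters 4, 5, 6 and 7, Col18a1, Col4a1 and Col4a2 were the 3 collagens that passed, and Col27a1 (0.35 ± 0.41, adjusted p = 0.569) and Col4a3 (-0.99 ± 0.50, adjusted p = 0.165) did not. The 7 neutrophil markers summed to 0.972 to 1.65 CPM in NS-Sham and 91.6 to 221 CPM in NS-I/R and the 9 macrophage markers to 40.6 to 85.3 CPM and 124 to 159.8 CPM, and their part was not tested.

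The I/R change itself differed between fibroblast-like and endothelial-like nuclei for 11 of 34 collagens tested (1 in the positive and 10 in the negative direction), against 14.0% of all genes (5.62% and 8.43%). The interaction is the log2 change in fibroblast-like minus that in endothelial-like nuclei of the same libraries. It was largest among well-counted genes for Col18a1 (-3.96 ± 0.31, adjusted p = 6.18e-08, -3.88 without NS-I/R 3), which fell in fibroblast-like and rose in endothelial-like nuclei. Col15a1, the closest relative of Col18a1, followed at -2.56 ± 0.25, adjusted p = 1.08e-06, -3.04 without NS-I/R 3. It had 73.4, 60.9 and 63.7 CPM in NS-Sham and 65.0, 67.5 and 101 CPM in NS-I/R in endothelial-like nuclei, where it did not pass (0.24 ± 0.17). Col27a1 differed by -1.69 ± 0.29, adjusted p = 0.000496, -1.98 without NS-I/R 3, with 107, 122 and 106 CPM in NS-Sham and 78.8, 63.4 and 192 CPM in NS-I/R in fibroblast-like nuclei.

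Pericyte-like nuclei raised 4 of the 5 type IV chains tested. Of 20 collagens, 8 passed (5 up, 3 down), 40.0% against 24.0% of all genes (12.0% in each direction). The median log2 fold change of these 20 was -0.28, and that of all genes 0.02. Col4a4 had 86.1, 113 and 119 CPM in NS-Sham and 403, 284 and 98.7 CPM in NS-I/R (log2 change 1.30 ± 0.34 (SE), adjusted p = 0.0117, and 1.69 without NS-I/R 3). NS-I/R 1 and 2 were above every NS-Sham library and NS-I/R 3 was within their range, and the call was lost without NS-I/R 1 (0.85, 0.0845) or NS-Sham 1 (1.16, 0.0596) (log2 and adjusted p). Col4a3 had 46.9, 67.7 and 68.6 CPM in NS-Sham and 106, 108 and 79.2 CPM in NS-I/R (log2 change 0.67 ± 0.22 (SE), adjusted p = 0.0332, and 0.80 without NS-I/R 3), with no overlap, but its call was lost without any one of NS-I/R 1, NS-I/R 2, NS-Sham 1, NS-Sham 2 and NS-Sham 3 (log2 0.51 to 0.77, adjusted p 0.054 to 0.147). These are the chains that fell in fibroblast-like nuclei. The change of Col4a4 was 1.98 ± 0.35, adjusted p = 0.000679, 2.11 without NS-I/R 3 above that in endothelial-like nuclei, and the change of Col4a3 2.16 ± 0.44, adjusted p = 0.00319, 3.23 without NS-I/R 3. Over 27 collagens, 5 differed in this way (3 positive, 2 negative), against 5.25% of all genes (2.53% and 2.72%). Endocardial-like nuclei, where both chains were highest in NS-Sham, were not tested. There Col4a3 had 472, 703 and 717 CPM in NS-Sham and 214, 235 and 167 CPM in NS-I/R. Col4a4 had 724, 805 and 1033 CPM in NS-Sham and 434, 469 and 248 CPM in NS-I/R. The endocardial markers of these nuclei fell too, as given above, and their part was not tested.

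Col5a3, a type V chain, was also up in pericyte-like nuclei, with 198, 175 and 229.9 CPM in NS-Sham and 235, 254 and 508 CPM in NS-I/R (log2 change 0.75 ± 0.23 (SE), adjusted p = 0.027, and 0.30 without NS-I/R 3 (adjusted p = 0.102)). NS-I/R 3 was the highest library, and the call was lost without any one of NS-I/R 3, NS-Sham 1 and NS-Sham 2 (log2 0.30 to 0.73, adjusted p 0.0818 to 0.121). Col3a1 fell, with 139, 83.6 and 96.4 CPM in NS-Sham and 24.7, 17.4 and 67.8 CPM in NS-I/R (log2 change -1.50 ± 0.35 (SE), adjusted p = 0.00494, and -2.31 without NS-I/R 3). Col8a1 changed by -0.83 ± 0.25, or -0.89 without NS-I/R 3 and Col6a1 by -0.71 ± 0.24, or -1.02 without NS-I/R 3 (log2, SE), and both groups were apart for each gene. The Col8a1 call was lost without any one of NS-I/R 2, NS-Sham 1 and NS-Sham 2 (log2 -0.79 to -0.65, adjusted p 0.0737 to 0.127) and the Col6a1 call without any one of Enpa-I/R 2, NS-I/R 1, NS-I/R 2, NS-Sham 1, NS-Sham 2 and NS-Sham 3 (log2 -0.77 to -0.54, adjusted p 0.0535 to 0.166). DESeq2 did not call Col4a3, Col4a4, Col6a1 or Col8a1 in this class. The 7 fibroblast markers in this class summed to 997 to 1131 CPM in NS-Sham and 394 to 525 CPM in NS-I/R (5 of 7 higher), the 7 pericyte markers to 9795 to 10850 CPM and 7161 to 7857 CPM and the 7 neutrophil markers to 1.27 to 1.85 CPM and 85.5 to 438 CPM. Their part was not tested. In smooth muscle-like nuclei 1 of 21 collagens passed, Col4a1, against 5.99% of all genes (2.62% up, 3.37% down). This class held 49 to 163 nuclei per library. Its most abundant collagens, Col4a6, Col4a5 and Col18a1, did not pass. Col4a6 had 291, 841 and 567 CPM in NS-Sham and 310.1, 378 and 664 CPM in NS-I/R, Col4a5 had 545, 696 and 362 CPM in NS-Sham and 294, 239 and 431 CPM in NS-I/R and Col18a1 had 385, 389 and 404 CPM in NS-Sham and 504, 588 and 551 CPM in NS-I/R. Their log2 changes were -0.34 ± 0.37, -0.74 ± 0.27 and 0.48 ± 0.20.

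In cardiomyocyte-like nuclei, whose clusters changed as given above, 9 of 28 collagens passed (7 up, 2 down), 32.1% against 45.2% of all genes (23.7% up, 21.5% down). The median log2 fold change of these 28 was -0.12, and that of all genes 0.01. In the sum of clusters 0, 1 and 2, 9 of 26 passed (6 up, 3 down), of which 7 were among the first 9 with the same sign. Apart from Col4a1 and Col4a2 the levels were low. Col6a2 had 5.16, 1.87 and 2.34 CPM in NS-Sham and 12.2, 10.3 and 5.24 CPM in NS-I/R (log2 change 1.60 ± 0.40 (SE), adjusted p = 0.00881, and 1.90 without NS-I/R 3), and Col18a1 had 0.803, 0.483 and 1.23 CPM in NS-Sham and 9.07, 4.94 and 1.95 CPM in NS-I/R (log2 change 2.74 ± 0.56 (SE), adjusted p = 0.00317, and 3.14 without NS-I/R 3). Col12a1 had 0.688, 0.121 and 0.369 CPM in NS-Sham and 2.99, 2.90 and 2.77 CPM in NS-I/R from 11 and 92 UMIs (log2 change 3.01 ± 0.57 (SE), adjusted p = 0.00209, and 3.06 without NS-I/R 3). Col4a6 had 7.22, 3.50 and 4.67 CPM in NS-Sham and 8.75, 14.9 and 7.39 CPM in NS-I/R (log2 change 1.04 ± 0.34 (SE), adjusted p = 0.0281, and 1.25 without NS-I/R 3) and lost its call without any one of NS-I/R 2, NS-Sham 2 and NS-Sham 3 (log2 0.67 to 0.98, adjusted p 0.0842 to 0.132). Col4a5, by contrast the most abundant collagen of NS-Sham cardiomyocyte-like nuclei, had 291, 288 and 305 CPM in NS-Sham and 264, 268 and 332 CPM in NS-I/R and did not pass (-0.04 ± 0.14). Here the 7 cardiomyocyte markers summed to 55930 to 62650 CPM in NS-Sham and 38890 to 48400 CPM in NS-I/R, the neutrophil markers to 0.422 to 2.18 CPM and 23.0 to 67.5 CPM, and the fibroblast markers to 46.0 to 68.5 CPM and 36.8 to 48.5 CPM, and their part was not tested.

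Summed over all nuclei, collagens made up 0.197% ± 0.0145 (SD, n = 3) of UMIs for NS-Sham, 0.301% ± 0.0148 for NS-I/R and 0.281% ± 0.0139 for Enpa-I/R. Without Col4a1 and Col4a2 the shares were 0.154% ± 0.00976, 0.134% ± 0.0448 and 0.183% ± 0.0155. In such sums fewer cells of a type and less RNA per cell cannot be told apart. Between NS-I/R and NS-Sham, 14 of 40 collagens passed (4 up, 10 down), 35.0% against 47.8% of all genes (23.9% in each direction). Col12a1 had 4.05, 2.81 and 4.04 CPM in NS-Sham and 15.3, 22.4 and 9.52 CPM in NS-I/R (log2 change 2.13 ± 0.30 (SE), adjusted p = 0.000312, and 2.40 without NS-I/R 3) and Col18a1 15, 13.6 and 18.2 CPM in NS-Sham and 25.5, 30.5 and 33.3 CPM in NS-I/R (log2 change 0.93 ± 0.15 (SE), adjusted p = 0.000812, and 0.84 without NS-I/R 3). Of the 1098 Col12a1 UMIs of NS-I/R, 24.0% were in 34 adipocyte-like nuclei (838 CPM), 29 of them in NS-I/R 2, the library with the highest value, and 47.0% in fibroblast-like nuclei. The part of the adipocyte-like nuclei in this call was not tested. Col6a6 had 49.0, 42.4 and 36.7 CPM in NS-Sham and 5.77, 3.81 and 5.96 CPM in NS-I/R (log2 change -3.05 ± 0.21 (SE), adjusted p = 7.88e-06, and -3.18 without NS-I/R 3). The groups did not overlap for these 3 genes. Type I and III chains again did not pass: Col1a1 had 38.5, 30.3 and 36.9 CPM in NS-Sham and 31.6, 21.9 and 67.7 CPM in NS-I/R and Col3a1 105, 84.0 and 114 CPM in NS-Sham and 50.9, 52.0 and 193 CPM in NS-I/R.

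Between enpatoran and saline after I/R, fewer collagens differed. In fibroblast-like nuclei 9 of 35 collagens passed (8 up, 1 down), 25.7% against 9.68% of all genes (3.75% up, 5.93% down). Without NS-I/R 3 this count was 22 of 36, where 5336 of 13769 genes passed. Without 1 of the NS-Sham libraries it was 5 to 7 of 35, where 775 to 988 genes passed, and without any one of the other libraries edgeR called 0 of 36 (14 to 19 at an unadjusted p under 0.05), where 22 to 92 genes passed. It was also 0 in a fit of the 6 libraries of the contrast (17 at an unadjusted p under 0.05). DESeq2 with all libraries called 13. Over all classes and all nuclei together, none of the 25 called differences was kept in every fit that left out 1 library, against 40 of 57 for NS-I/R minus NS-Sham.

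The fibroblast-like collagens higher with enpatoran were Col14a1, Col15a1, Col6a1, Col6a2, Col6a6, Col1a2, Col4a5 and Col8a1. All but Col1a2 had fallen after I/R, in a contrast that uses the same saline libraries. Col14a1 had 15.7, 15.8 and 37.0 CPM in NS-I/R and 64.1, 70.9 and 87.1 CPM in Enpa-I/R (log2 change 1.68 ± 0.28 (SE), adjusted p = 0.0123, and 2.23 without NS-I/R 3), a call lost without any one of Enpa-I/R 1, Enpa-I/R 2, Enpa-I/R 3, NS-I/R 1 and NS-I/R 2 (log2 1.46 to 1.78, adjusted p 0.0505 to 0.0626). Col15a1 had 77.7, 68.7 and 259 CPM in NS-I/R and 356, 365 and 494 CPM in Enpa-I/R (log2 change 1.58 ± 0.39 (SE), adjusted p = 0.0305, and 2.47 without NS-I/R 3), a call lost without any one library except NS-Sham 2 and NS-I/R 3 (log2 1.26 to 1.67, adjusted p 0.0513 to 0.108). Every Enpa-I/R library was above every NS-I/R library for both genes. Col6a1 had 46.6, 43.5 and 88.9 CPM in NS-I/R and 116, 109.8 and 129.7 CPM in Enpa-I/R (log2 change 0.98 ± 0.22 (SE), adjusted p = 0.0236, and 1.40 without NS-I/R 3), a call lost without any one of Enpa-I/R 1, Enpa-I/R 2, Enpa-I/R 3, NS-I/R 1 and NS-I/R 2 (log2 0.80 to 1.04, adjusted p 0.0717 to 0.0935). Col1a2 had 222, 231 and 467 CPM in NS-I/R and 551, 671 and 499 CPM in Enpa-I/R (log2 change 0.90 ± 0.24 (SE), adjusted p = 0.0392, and 1.34 without NS-I/R 3), a call lost without any one library except NS-I/R 3 (log2 0.71 to 1.00, adjusted p 0.0551 to 0.149). For Col1a2, NS-I/R 3 was far above NS-I/R 1 and 2 and close to the lowest Enpa-I/R library. Within cluster 10 alone, Col15a1 (1.58 ± 0.33) and Col27a1 (0.77 ± 0.14) were the 2 collagens that passed, both upward. Cluster 10 held 60.4% and cluster 25 29.4% of the class in Enpa-I/R. Marker sums of this class moved as well: the fibroblast markers went from 2894 to 3511 CPM with saline to 3567 to 3930 CPM with enpatoran, the neutrophil markers from 50.6 to 151 CPM to 24.8 to 33.8 CPM, the Schwann markers from 56.0 to 82.0 CPM to 94.1 to 118 CPM and the cardiomyocyte markers from 1312 to 1400 CPM to 1497 to 1985 CPM. Their part was not tested.

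Col23a1 was the one collagen lower with enpatoran in fibroblast-like nuclei, with 55.6, 78.8 and 12.4 CPM in NS-I/R and 7.65, 6.28 and 6.76 CPM in Enpa-I/R (log2 change -2.81 ± 0.54 (SE), adjusted p = 0.0166, and -3.26 without NS-I/R 3). Here too NS-I/R 3 was near the Enpa-I/R libraries, and the call was lost without any one of Enpa-I/R 1, Enpa-I/R 2, Enpa-I/R 3, NS-I/R 1 and NS-I/R 2 (log2 -2.89 to -2.27, adjusted p 0.0583 to 0.074). Of the type I and III chains not called, Col1a1 had 137, 95.3 and 266 CPM in NS-I/R and 289, 358 and 274 CPM in Enpa-I/R and Col3a1 221, 233 and 763 CPM in NS-I/R and 817, 878 and 650.0 CPM in Enpa-I/R. Their NS-I/R 3 values lay within or near the Enpa-I/R range.

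In cardiomyocyte-like nuclei 6 of 28 collagens passed between enpatoran and saline (3 up, 3 down), against 18.9% of all genes (7.66% up, 11.3% down). Col4a1 was lower, with 790.5, 672 and 526 CPM in NS-I/R and 365, 309 and 347 CPM in Enpa-I/R (log2 change -0.96 ± 0.17 (SE), adjusted p = 0.0108, and -1.11 without NS-I/R 3), and lost its call without Enpa-I/R 3 (-0.97, 0.051). Col4a2 had 1286, 1134 and 566 CPM in NS-I/R and 452, 377 and 448 CPM in Enpa-I/R (log2 change -1.23 ± 0.26 (SE), adjusted p = 0.0166, and -1.52 without NS-I/R 3) and lost it without any one of Enpa-I/R 1, Enpa-I/R 2, Enpa-I/R 3, NS-I/R 1 and NS-I/R 2 (log2 -1.27 to -1.0, adjusted p 0.0575 to 0.0658). No Enpa-I/R library reached an NS-I/R library for either gene. In cluster 26, where Col4a1 was highest, pooled values were 1118 CPM in NS-I/R and 1042 CPM in Enpa-I/R. In the sum of clusters 0, 1 and 2, edgeR called 0 of 26 collagens, with 13 at an unadjusted p under 0.05, and DESeq2 was not run on that sum. Within cluster 0 alone, 1 of 3 collagens tested passed, Col4a2, in the same direction as in the class (-1.20 ± 0.27, adjusted p = 0.0217), against 101 of 5008 genes. The cardiomyocyte markers of the class summed to 38890 to 48400 CPM with saline and 55920 to 57110 CPM with enpatoran and the 7 pericyte markers to 96.8 to 152 CPM and 157 to 219.9 CPM, and their part was not tested. Col4a5 was higher, with 264, 268 and 332 CPM in NS-I/R and 382, 371 and 485 CPM in Enpa-I/R (log2 change 0.52 ± 0.14 (SE), adjusted p = 0.033, and 0.63 without NS-I/R 3), a call lost without any one library except NS-Sham 2 and NS-I/R 3 (log2 0.39 to 0.60, adjusted p 0.0517 to 0.126).

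Elsewhere the contrast gave few calls. In endothelial-like nuclei edgeR called 0 of 24 collagens, with 6 at an unadjusted p under 0.05 and 2 called by DESeq2, against 7.34% of all genes (3.27% up, 4.08% down). Col4a1 had 1603, 1473 and 1174 CPM in NS-I/R and 898, 999 and 1052 CPM in Enpa-I/R there and Col18a1 60.3, 83.7 and 117 CPM in NS-I/R and 46.7, 53.1 and 46.7 CPM in Enpa-I/R. Their adjusted p-values were 0.0528 and 0.0513. In smooth muscle-like nuclei edgeR called 0 of 21, with 4 at an unadjusted p under 0.05 and 0 by DESeq2, against 0.0142%. In pericyte-like nuclei 3 of 20 passed (2 up, 1 down), against 5.76% (2.84% up, 2.92% down). They were Col4a4, with 403, 284 and 98.7 CPM in NS-I/R and 113, 66.5 and 104 CPM in Enpa-I/R (log2 change -1.45 ± 0.35 (SE), adjusted p = 0.0259, and -1.83 without NS-I/R 3), Col16a1 (1.38 ± 0.37, or 1.67 without NS-I/R 3) and Col27a1 (0.83 ± 0.22, or 1.08 without NS-I/R 3). Col4a4 lost its call without any one of Enpa-I/R 1, Enpa-I/R 2, Enpa-I/R 3, NS-I/R 1 and NS-I/R 2 (log2 -1.59 to -0.99, adjusted p 0.0704 to 0.15), Col16a1 without any one library except NS-Sham 3 and NS-I/R 3 (log2 1.16 to 1.41, adjusted p 0.0532 to 0.178) and Col27a1 without any one of Enpa-I/R 1, Enpa-I/R 2, Enpa-I/R 3, NS-I/R 1, NS-I/R 2 and NS-Sham 3 (log2 0.68 to 0.93, adjusted p 0.0516 to 0.166). Over all nuclei 7 of 40 passed (4 up, 3 down), against 16.5% (7.75% up, 8.74% down): Col14a1, Col15a1, Col4a5 and Col8a1 were higher, and Col12a1, Col4a1 and Col4a2 lower. Col12a1 had 15.3, 22.4 and 9.52 CPM in NS-I/R and 6.90, 8.32 and 7.80 CPM in Enpa-I/R (log2 change -1.04 ± 0.28 (SE), adjusted p = 0.0338, and -1.29 without NS-I/R 3) and lost its call without any one library except NS-Sham 2 and NS-I/R 3 (log2 -1.09 to -0.71, adjusted p 0.0528 to 0.115).

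**Figure D4:**
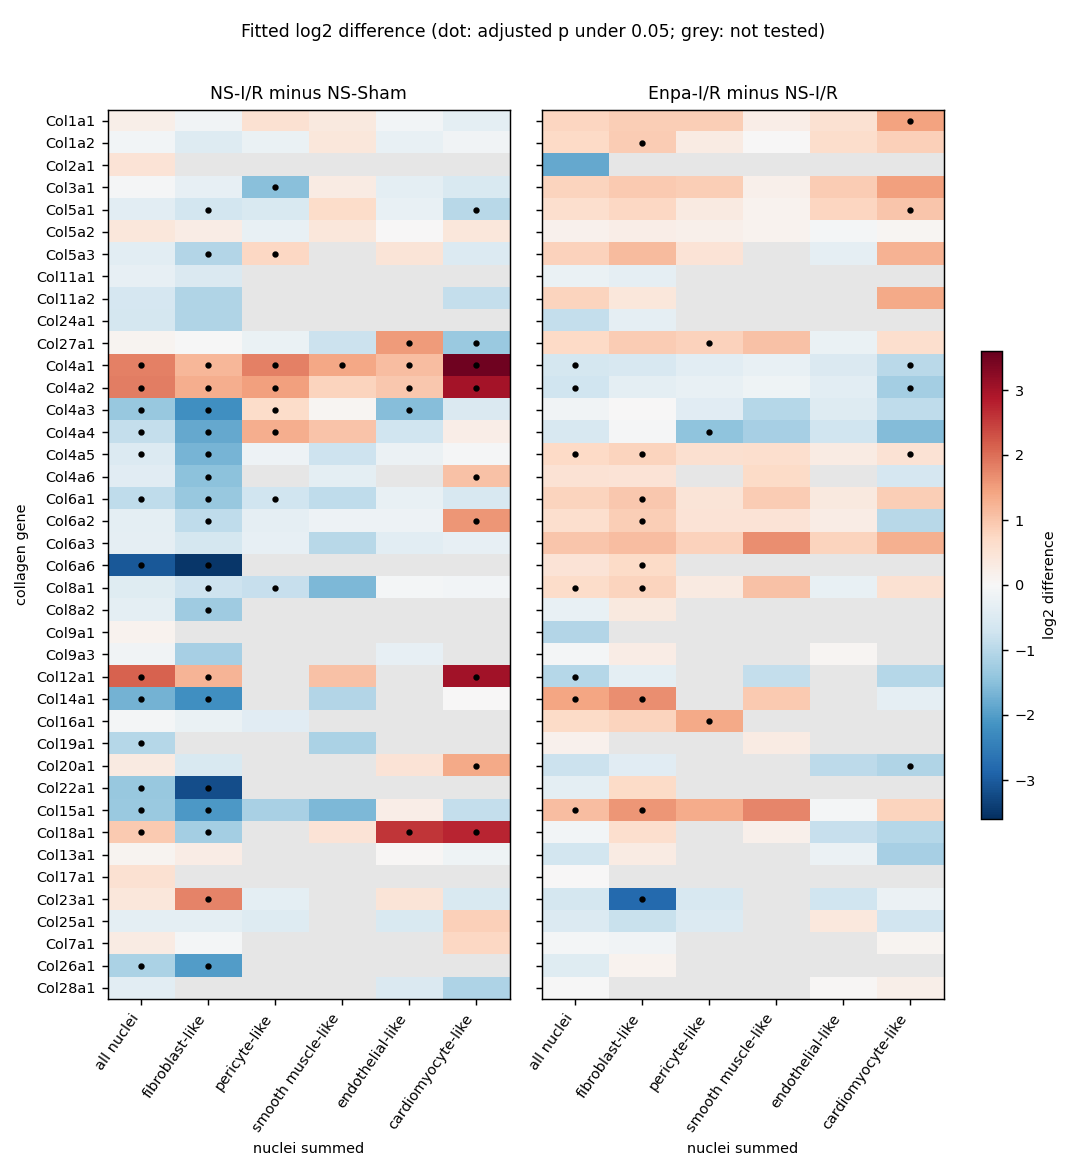
Log2 fold change (edgeR) of collagen genes in each class for NS-I/R minus NS-Sham (left) and for Enpa-I/R minus NS-I/R (right), 1 row per gene, shown by colour, with calls at an adjusted p under 0.05 marked. Col4a1 and Col4a2 are positive in every class after I/R, and the minor type IV chains are negative in fibroblast-like nuclei and positive or near 0 in pericyte-like nuclei.

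Genes that process collagen, bind it or share its basement membrane were read from 3 lists of 33, 10 and 16 genes. Those given with a value kept their direction and their call without NS-I/R 3. This is a weak check, since that fit lost few calls of collagen and list genes within classes or all nuclei. It lost 1 of 100 for NS-I/R minus NS-Sham and 0 of 34 for Enpa-I/R minus NS-I/R. Leaving out any other NS-I/R or Enpa-I/R library lost 30 to 33 of those 34. Of the biosynthesis list (modifying enzymes, chaperones, proteinases and cross-linkers), 12 of 32 tested rose and 8 fell in fibroblast-like nuclei after I/R (10 and 11 without NS-I/R 3), with a median log2 fold change of 0.16 against -0.01 over all genes. In endothelial-like nuclei 12 of 26 rose and 2 fell (median 0.38), in cardiomyocyte-like 11 of 29 and 2 (0.27), and in pericyte-like 5 of 24 and 3 (0.29), against medians over all genes of 0.01, 0.01 and 0.02. The shares of all genes that rose and fell were 23.4% and 23.3% in fibroblast-like, 18.4% and 17.2% in endothelial-like, 23.7% and 21.5% in cardiomyocyte-like and 12.0% and 12.0% in pericyte-like nuclei. Without NS-I/R 3, 11 and 4 biosynthesis genes rose and fell in endothelial-like, 12 and 4 in cardiomyocyte-like and 5 and 4 in pericyte-like nuclei. The shares above are those with all libraries. Colgalt2, which adds galactose to collagen hydroxylysine, fell in all 4 classes, in the order fibroblast-like, endothelial-like, pericyte-like and cardiomyocyte-like by 3.00 ± 0.19, 1.79 ± 0.24, 1.85 ± 0.25 and 2.47 ± 0.48 (log2, SE). Adamts2, the procollagen N-proteinase, rose by 1.23 ± 0.14, 1.52 ± 0.24, 1.82 ± 0.15 and 2.62 ± 0.29 in the same order. Lox, the cross-linking lysyl oxidase, rose in fibroblast-like nuclei (2.67 ± 0.37), in endothelial-like nuclei (2.50 ± 0.45) and in cardiomyocyte-like nuclei (5.38 ± 0.87), and Loxl1, a relative, by 2.97 ± 0.42 in pericyte-like nuclei. Tll1, a tolloid-like procollagen C-proteinase, rose by 2.72 ± 0.48 in fibroblast-like and 2.53 ± 0.37 in endothelial-like nuclei.

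Partners that build the basement membrane with type IV collagen were counted in the same way. In fibroblast-like nuclei 0 of 14 rose and 9 fell (1 and 10 without NS-I/R 3, median -0.64 with all libraries), against 23.4% and 23.3% of all genes, among them Lama2, a laminin chain (-1.46 ± 0.11), Nid2, which links laminin to type IV collagen (-1.29 ± 0.19), and Lamc1 (-1.25 ± 0.16). In the sum of clusters 10 and 20 the calls of Nid2 (-0.69, adjusted p = 0.0575) and of the receptor chain Itga1 (-0.06, adjusted p = 0.78) were lost. In endothelial-like nuclei 4 of 12 rose and 2 fell (median 0.11), with Nid1 at 1.07 ± 0.18 and Lama5 at 0.87 ± 0.14. In cardiomyocyte-like nuclei 3 of 14 rose and 4 fell (median -0.18), with Lamc1 at 1.21 ± 0.12 and Hspg2, the proteoglycan perlecan, at 1.14 ± 0.13 among those that rose, and Lama3 down at -2.14 ± 0.47. In pericyte-like nuclei 1 of 11 rose, Lamb1 (0.81 ± 0.18), and 3 fell (median -0.17). Without NS-I/R 3 the counts were 4 and 2 in endothelial-like, 4 and 4 in cardiomyocyte-like and 3 and 3 in pericyte-like nuclei. For the counts with all libraries, the shares of all genes are those given above. These shares do not apply to the counts without NS-I/R 3. Of the receptors, 3 rose and 2 fell of 8 in fibroblast-like, 4 and 2 of 7 in endothelial-like, 0 and 1 of 6 in pericyte-like and 3 and 0 of 8 in cardiomyocyte-like nuclei (medians 0.10, 0.60, -0.25 and 0.64), against 23.4% and 23.3%, 18.4% and 17.2%, 12.0% and 12.0% and 23.7% and 21.5% of all genes. Without NS-I/R 3 these counts were 3 and 2, 5 and 2, 1 and 2 and 5 and 1. Itga1, a collagen-binding integrin chain, fell in fibroblast-like (-0.76 ± 0.16), endothelial-like (-1.35 ± 0.12) and pericyte-like nuclei (-1.05 ± 0.20). Its partner Itgb1 rose in cardiomyocyte-like nuclei (2.54 ± 0.27), as did Itga11 (4.02 ± 0.65), which fell in fibroblast-like nuclei (-1.75 ± 0.34).

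With enpatoran, 3 of 32 biosynthesis genes were higher and 2 lower in fibroblast-like nuclei, 2 and 0 of 26 in endothelial-like, 1 and 1 of 24 in pericyte-like and 2 and 8 of 29 in cardiomyocyte-like nuclei. The shares of all genes were 3.75% and 5.93%, 3.27% and 4.08%, 2.84% and 2.92% and 7.66% and 11.3%. Without NS-I/R 3 the counts were 16 and 5 of 32, 7 and 7 of 28, 6 and 3 of 25 and 6 and 10 of 30. The shares are those with all libraries and do not apply to counts without NS-I/R 3. In fibroblast-like nuclei far more of all genes passed without that library, as given above. Serpinh1, the collagen chaperone HSP47, was higher in fibroblast-like nuclei (1.24 ± 0.24), a call lost without any one of Enpa-I/R 1, Enpa-I/R 2, Enpa-I/R 3, NS-I/R 1 and NS-I/R 2 (log2 1.05 to 1.33, adjusted p 0.0578 to 0.0762). Colgalt2 was higher in fibroblast-like (1.00 ± 0.19), endothelial-like (1.12 ± 0.24), pericyte-like (1.19 ± 0.26) and cardiomyocyte-like nuclei (2.10 ± 0.49). In that order the calls were lost without any one of Enpa-I/R 1, Enpa-I/R 2, Enpa-I/R 3, NS-I/R 1 and NS-I/R 2 (log2 0.84 to 1.07, adjusted p 0.055 to 0.0712), without any one of Enpa-I/R 1, Enpa-I/R 2, Enpa-I/R 3, NS-I/R 1 and NS-I/R 2 (log2 0.89 to 1.20, adjusted p 0.0515 to 0.0816), without any one of Enpa-I/R 1, Enpa-I/R 2, NS-I/R 1 and NS-I/R 2 (log2 0.97 to 1.17, adjusted p 0.0625 to 0.0888) and without any one of Enpa-I/R 2, Enpa-I/R 3, NS-I/R 1 and NS-I/R 2 (log2 1.69 to 2.18, adjusted p 0.061 to 0.0926). Of the receptors 0 and 0 of 8, 1 and 0 of 7, 1 and 0 of 6 and 0 and 2 of 8 were higher and lower in the same order of classes. The basement membrane partners gave 3 and 0 of 14, 0 and 1 of 12, 1 and 0 of 11 and 1 and 2 of 14. The shares of all genes for both lists are those given at the start of the paragraph. Without NS-I/R 3 the receptor counts were 1 and 2, 3 and 2, 2 and 1 and 1 and 4 and the partner counts 5 and 3, 1 and 2, 2 and 0 and 2 and 4.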

How the data were processed

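The deposited files were 9 gene by barcode matrices of raw UMI counts, made by Cell Ranger 8.0.0 per the file headers. The submitters' processing notes name Cell Ranger 6.1.1, Seurat, GRCh38 and GRCm39, so the build of the counts is not settled and no gene positions are given beyond the printed RefSeq windows (GRCm38.p6). Whether reads in introns or on the opposite strand were counted is not given in the sources used here.

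Nuclei with at least 500 genes and at most 5% mitochondrial UMIs were kept, and per library the barcodes with the highest Scrublet scores were removed as doublets, 0.8% of barcodes per 1000 barcodes. Clustering (scanpy 1.11.5) used 2000 variable genes without the collagen and list genes, 30 principal components, 15 neighbours and Leiden resolution 1, giving 27 clusters. To be named, a cluster needed 3 or more markers of a type and a score at least 0.6 above the runner-up of 14 types. The score was the mean log2 ratio of the cluster's CPM to the median over clusters, with 10 CPM added to both. A marker counted if found in at least 5% of the cluster's nuclei and if this ratio was at least 2-fold. These limits were chosen after seeing the data. One cluster, led by heat-shock genes, stayed unnamed, with 0.0151% of NS-Sham, 2.86% of NS-I/R and 0.0821% of Enpa-I/R nuclei.

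Counts summed per class and library were fitted over all 9 libraries with the quasi-likelihood test of edgeR 4.0.16 after filterByExpr and TMM scaling, without covariates, and interactions between classes had the library as a block. Each SE was derived from the size of the log2 change and its F statistic, and CPM of the tested classes are TMM-scaled while pooled CPM are not. The labels give 1 heart per library. The fit was tested on simulated counts. Alternatives were DESeq2 1.42.0, other scaling, filters and clustering settings, the replicate block and each library left out.

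The genes and lists were chosen with earlier results of these data known. The rule for named genes took 16 collagens named in advance, up to 5 called genes per class, contrast and direction with the largest changes at 10 CPM or more in 1 group, and up to 3 called genes per list. Other genes named with a value were chosen after their values were seen. Cells were not used as replicates.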

Additional observations from a re-analysis of the deposited data

Results flagged for a closer look

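The change from NS-Sham to NS-I/R differed between cell classes for 16 results by the test of the interaction (edgeR, adjusted p under 0.05, log2 with SE). Between fibroblast-like and endothelial-like nuclei the difference was -3.96 ± 0.31 for Col18a1, -2.56 ± 0.25 for Col15a1, -1.69 ± 0.29 for Col27a1, -1.51 ± 0.30 for Col4a5, -1.65 ± 0.38 for Col5a3, -1.17 ± 0.33 for Col4a4, -1.12 ± 0.37 for Col20a1, -1.11 ± 0.31 for Col6a1 and -0.75 ± 0.21 for Col8a1, all in the direction of lower in fibroblast-like nuclei. Col26a1 differed by -4.55 ± 0.86 and Col28a1 by 3.52 ± 1.09, but the first rested on 5 and 29 endothelial-like UMIs in NS-Sham and NS-I/R, and the second on 2 and 25 fibroblast-like UMIs, so these fitted values depend on the prior count. Between pericyte-like and endothelial-like nuclei the difference was 2.16 ± 0.44 for Col4a3, 1.98 ± 0.35 for Col4a4, -1.83 ± 0.33 for Col27a1, -1.18 ± 0.35 for Col3a1 and 0.67 ± 0.16 for Col4a1.

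Of the 16 differences, 8 stayed past the threshold in every fit that left out 1 library. The call was lost for Col26a1 without NS-I/R 1 (-2.91, 0.123), for Col28a1 without any one of NS-I/R 1, NS-I/R 2, NS-Sham 2 and NS-Sham 3 (log2 2.06 to 3.40, adjusted p 0.0704 to 0.323), for Col20a1 without any one of Enpa-I/R 1, Enpa-I/R 3, NS-I/R 2, NS-Sham 1, NS-Sham 2 and NS-Sham 3 (log2 -1.31 to -0.68, adjusted p 0.053 to 0.33), for Col4a4 (fibroblast-like) without any one of NS-I/R 1, NS-I/R 2 and NS-Sham 3 (log2 -1.08 to -0.99, adjusted p 0.0559 to 0.176), for Col6a1 without any one of NS-I/R 3, NS-Sham 1 and NS-Sham 3 (log2 -1.03 to -0.94, adjusted p 0.0528 to 0.137), for Col8a1 without any one of NS-I/R 2, NS-Sham 1 and NS-Sham 3 (log2 -0.70 to -0.60, adjusted p 0.0797 to 0.117), for Col3a1 without any one of Enpa-I/R 2, NS-I/R 2, NS-I/R 3, NS-Sham 1 and NS-Sham 3 (log2 -1.18 to -0.95, adjusted p 0.0564 to 0.198) and for Col4a1 without NS-Sham 1 (0.64, 0.0628) or NS-Sham 3 (0.60, 0.0886), with the log2 difference and adjusted p in brackets.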

How the results depend on the processing

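For single genes, 2600 of 3020 values under an alternative kept the direction and the side of the threshold, 406 lost the call, 10 gained one and 4 changed sign. The last were Col1a1 in fibroblast-like nuclei after I/R (0.0386 in the clusters present in every library and 0.144 without NS-I/R 2, range -0.65 to 0.14 with 1 library left out), Col3a1 (0.0087 without NS-I/R 1, range -1.13 to 0.0087) and Col5a2 (-0.12 in the clusters present in every library), none of them called. Counts of called collagens for NS-I/R minus NS-Sham ranged, with 1 library left out, over 11 to 27 in all nuclei, 17 to 26 in fibroblast-like, 4 to 9 in endothelial-like, 4 to 12 in pericyte-like, 1 to 7 in smooth muscle-like and 6 to 12 in cardiomyocyte-like nuclei. For Enpa-I/R minus NS-I/R the same ranges were 0 to 25, 0 to 22, 0 to 9, 0 to 13, 0 to 5 and 0 to 18, and each highest value of these 12 ranges was the fit without NS-I/R 3. For the differences between classes they were 7 to 13 (fibroblast-like) and 3 to 6 (pericyte-like). With the 6 libraries of the contrast, the enpatoran counts were 0 in all nuclei, 1 in cardiomyocyte-like, 0 in fibroblast-like and 0 in pericyte-like nuclei. DESeq2's Wald test gave 14 in all nuclei, 2 in endothelial-like and 0 in pericyte-like nuclei for enpatoran, 4 in pericyte-like nuclei after I/R and 6 for the fibroblast-like difference. With DESeq2's size factors, Leiden resolution 2, doublets kept or the unnamed cluster included, edgeR called 1 endothelial-like collagen for enpatoran in each case. Keeping doublets gave 10 cardiomyocyte-like calls for enpatoran and 2 smooth muscle-like ones after I/R. A mitochondrial limit of 20% gave 2 endothelial-like and 1 pericyte-like calls for enpatoran and 3 smooth muscle-like ones after I/R, and a minimum of 1000 genes gave 1 pericyte-like call for enpatoran. Without the low-count filter the enpatoran counts were 11 in cardiomyocyte-like, 4 in endothelial-like, 18 in fibroblast-like, 8 in pericyte-like and 2 in smooth muscle-like nuclei, and after I/R 8 in endothelial-like and 4 in smooth muscle-like nuclei. With the clusters present in every library, chosen after seeing the data, the counts were 0 in cardiomyocyte-like and 2 in fibroblast-like nuclei for enpatoran and 3 in endothelial-like nuclei after I/R. The causes of these shifts were not tested. Fits with fewer libraries have fewer residual degrees of freedom, and this holds for the fit without NS-I/R 3 too. With the replicate number as a block, the enpatoran counts were 4 in all nuclei, 3 in cardiomyocyte-like and 15 in fibroblast-like nuclei. In all nuclei and in fibroblast-like sums, same-numbered libraries deviated from their group means with correlations of -0.141 to 0.106. Differently numbered libraries had correlations of -0.109 to 0.136. Whether libraries of the same number also share a batch was not tested. The interaction fits have the library as a block already. Smooth muscle-like sums, at 271476 to 715831 UMIs per library, gave the fewest calls.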
